A study of Homo sapiens with 12 samples.

Results

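The interaction of EVI1 with the response to all-trans retinoic acid (ATRA) was read as a difference of differences. For each gene and each replicate number, the ATRA effect in cells without EVI1 (ATRA minus its solvent DMSO) was subtracted from the ATRA effect in cells with EVI1. The contrast used 12 of the 12 arrays of the series, 4 arrays at each of 3 replicate numbers. A positive value means that a gene's ATRA effect was more positive with EVI1, a negative value that it was more negative.

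All cells were U937, an established human line of monocyte-like leukaemia cells, grown in the same medium with serum and antibiotics. They had been transduced either with an EVI1 expression vector (EVI1 cells) or with the empty vector (vector cells), and were exposed for 24 h to 1 µM ATRA or to the same amount of DMSO. Crossing the line with the agent gave 4 groups, named by line and agent, each with 3 arrays that the series calls biological replicates. Neither the promoter driving EVI1 nor the number of clones behind each line was given in the sources used here, so the transduced line and EVI1 itself cannot be told apart.

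ATRA enters the nucleus and binds retinoic acid receptors, which sit on DNA as partners of retinoid X receptors and switch from repression to activation when the ligand binds. In myeloid leukaemia cells this slows division and starts maturation. EVI1, a zinc finger transcription factor made from the MECOM locus, marks poor-prognosis myeloid leukaemia and can act as a repressor or an activator.

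Myeloid markers were high as a list in all 4 groups: the median of 8 readable members lay between 8.71 and 9.80 (log2) on every array. The list had 10 members, of which CD33 and CD68 had no usable probe set of their own. Members differed: LYZ read 12.35 to 13.65, SPI1 6.07 to 7.11 and MPO 4.80 to 5.97, around the array medians. The median member lay between 5.18 and 5.65 for T and NK cell markers and between 5.74 and 6.88 for B cell markers. It was 5.02 to 6.27 for erythroid and 5.38 to 5.93 for megakaryocyte markers. For epithelial markers it was 4.25 to 4.89, and for fibroblast or endothelial markers 4.94 to 5.34. Single members read higher, such as NKG7 (7.18 to 8.33), COL1A1 (7.01 to 7.98) and PAX5 (5.74 to 7.99). The 5 probe sets for MECOM read between 2.61 and 3.60 on all arrays, below the lower quartile of every array (3.83 to 3.91), and thus do not check the EVI1 label. Array medians lay between 5.29 and 5.35, and the number of arrays limits the precision. In bulk RNA, fewer cells of a type and less RNA per cell cannot be told apart.

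No gene passed the main test of the interaction, which leaves the replicate numbers unpaired. With limma (moderated linear models over 4 group means, Benjamini-Hochberg adjustment over 14080 genes, threshold 0.05), 0 genes (0%) were called and the smallest adjusted p was 0.998. At an unadjusted p under 0.05 there were 362 genes (2.57%), 185 (1.31%) with a positive and 177 (1.26%) with a negative difference. For scale, 5% of the genes tested is 704. The median standard error of a single gene was 0.20, larger than the median absolute difference of 0.14.

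Arrays of the same replicate number deviated together, so the spread between numbers enters that test. With replicate number as a block, limma again called 0 genes, with a smallest adjusted p of 0.346, while 734 genes (5.21%) were positive and 1112 (7.90%) negative at an unadjusted p under 0.05, 1846 (13.1%) in all. With a separate block for each number under each agent it called 0 genes and 1958 (13.9%) passed the unadjusted limit. With a separate block for each number within each cell line, 5 genes (0.0355%) were called, 4 (0.0284%) positive and 1 (0.0071%) negative, and 6.32% were positive and 8.44% negative at the unadjusted limit. The called genes were TOGARAM2, EGR1, CXCR5 and FAM222A on the positive side and HS3ST2 on the negative side. Testing the 3 differences per gene directly called 4 positive genes (0.0284%), SCN4B, EGR1, TOGARAM2 and RARB, and 0 negative genes. EGR1 and TOGARAM2 were thus called in both of these tests, and no gene was called in the fit without a block.

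The differences had more large values on the positive side. At least 1 log2 unit was reached by 57 genes (0.405%) in the positive direction and by 4 (0.0284%) in the negative direction, although 54.8% of all genes were negative and the median was -0.02. A single sign at all 3 numbers was found for 5896 genes, 41.9% of those tested: 2408 positive (17.1%) and 3488 negative (24.8%). Over all 14080 genes (genes are no independent replicates) the differences correlated between numbers 1 and 2 with Pearson's r = 0.27, between 1 and 3 with 0.36 and between 2 and 3 with 0.48. The 3 numbers share no arrays.

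Genes picked at 2 numbers mostly had the same sign at the number not used. The 100 largest positive differences at numbers 2 and 3 had a median of 0.755 at number 1, where 97 were positive, against 45.1% of all genes. When number 2 was held out, 96 were positive with a median of 0.760, against 43.4% of all genes. When number 3 was held out, 94 were positive with a median of 1.00, against 47.3% of all genes. For the 100 largest negative differences, 80, 82 and 86 were negative at the held-out numbers 1, 2 and 3, with medians of -0.27, -0.44 and -0.51. Of all genes, 54.0%, 55.8% and 51.9% were negative at these numbers.

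**Figure D1:**
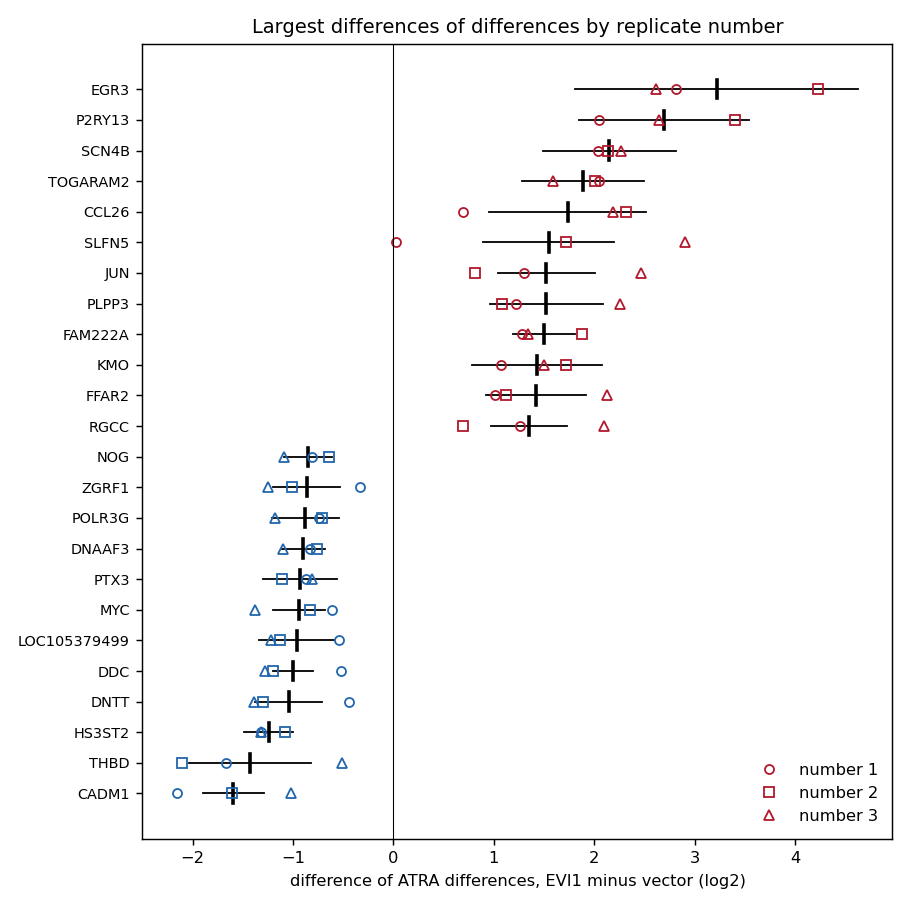
Difference of differences (EVI1 minus vector, log2, horizontal axis) of the 12 largest positive and 12 largest negative genes with an unadjusted p under 0.05 and a single sign. Open symbols are the 3 replicate numbers, thick ticks the mean and thin bars the standard error of the limma fit. EGR3 lies farthest to the right at 3.22 and CADM1 farthest to the left at -1.60.

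The ATRA response was wider in EVI1 cells along its own direction. Over the 3158 genes whose ATRA effect, averaged over both lines, passed the test (1568 raised, 11.1% of genes, and 1590 lowered, 11.3%), the mean effect in that direction was 0.491 ± 0.067 (SD, n = 3) log2 units in vector cells and 0.685 ± 0.049 in EVI1 cells. The difference of differences along the response was 0.138, 0.174 and 0.268 at numbers 1, 2 and 3, a mean of 0.193 ± 0.067 (SD, n = 3). It was positive in 3 of 3 numbers, and the EVI1 effect was 1.28, 1.31 and 1.63 times the vector effect. These genes were chosen on the mean of both lines, which favours neither if the ATRA effect has the same spread in both. Whether the spread was the same was not tested, and no test was made on these genes as a set.

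This widening was spread over many genes. Of the 1568 raised genes 78.9% had a positive difference, and of the 1590 lowered genes 82.5% a negative one, against 45.0% and 54.8% of all genes. A single sign at all 3 numbers was found for 755 raised genes in the positive and 119 in the negative direction, and for 900 lowered genes in the negative and 91 in the positive direction. With genes chosen at the other numbers, the mean was 0.169, 0.259 and 0.289 at numbers 1, 2 and 3. These means are over 3088, 310 and 1670 genes, so the sets behind them differ. Single arrays moved its size: it was 0.325 without EVI1 ATRA replicate 1, 0.121 without EVI1 ATRA replicate 3 and 0.122 without vector DMSO replicate 3. The other arrays of that number stayed in, so level differences between numbers enter these values. With all arrays of number 1, 2 or 3 left out, the mean was 0.27, 0.25 and 0.17. The genes were chosen anew each time.

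**Figure D2:**
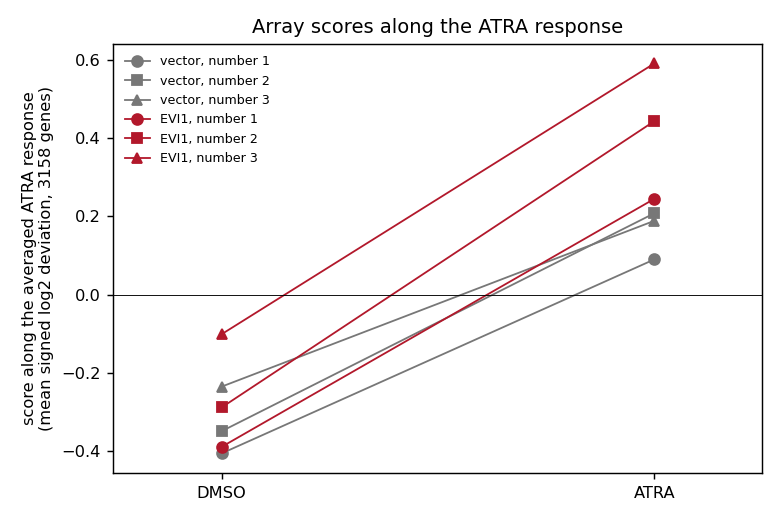
Score of each array along the averaged ATRA response (vertical axis, mean signed log2 deviation over 3158 genes) in DMSO and ATRA. Lines join arrays of a cell line and replicate number, with vector cells in grey and EVI1 cells in red. At each number the EVI1 line climbs more than the vector line, and the DMSO arrays of number 3 start highest, at -0.235 (vector) and -0.101 (EVI1).

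The number 3 cultures differed from the others before ATRA. The score of the DMSO arrays along the response was -0.405, -0.348 and -0.235 in vector cells and -0.388, -0.288 and -0.101 in EVI1 cells at numbers 1, 2 and 3. DHRS3, a retinaldehyde reductase gene that retinoic acid induces, stood at 5.30, 6.30 and 8.70 in vector DMSO and at 5.35, 5.73 and 9.70 in EVI1 DMSO. Both DMSO arrays of number 3 were thus nearer the ATRA arrays (10.45, 10.43 and 10.46 in vector, 10.93, 11.19 and 11.21 in EVI1), so the ATRA effects of number 3 in such genes have a raised baseline. The part of this baseline in the difference of differences was not tested. Without number 3 the mean along the response was 0.167, and 70.2% of raised and 81.2% of lowered genes went with it.

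The median difference was larger in genes with larger responses, but not in proportion. Raised genes with an averaged effect under 0.5 had a median difference of 0.11, those from 0.5 to 1 of 0.23, those from 1 to 2 of 0.36 and those of 2 or more of 0.49. In lowered genes the medians were -0.14 under 0.5, -0.26 from 0.5 to 1 and -0.29 from 1 to 2, and 3 further genes at 2 or more had a median of -0.43. At number 3 the medians did not keep this order: they were 0.49 from 1 to 2 and 0.40 at 2 or more in raised genes, and -0.33 from 0.5 to 1 and -0.26 from 1 to 2 in lowered genes. The difference was also taken gene by gene as a share of the averaged effect. The median share was 33.2%, 33.6%, 27.4% and 17.5% in the raised genes from smallest to largest. In the lowered genes it was 37.7%, 41.7%, 25.2% and 20%.

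**Figure D3:**
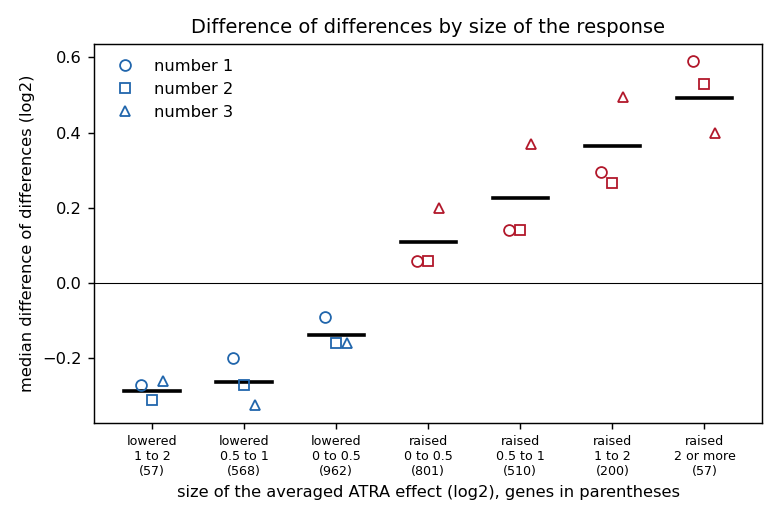
Median difference of differences (EVI1 minus vector, log2, vertical axis) by direction and size of the averaged ATRA effect (log2, horizontal axis, with the number of genes in parentheses). Thick bars are the median over the mean of 3 numbers and open symbols the single numbers. The bin of 3 lowered genes at 2 or more is not drawn. The medians drawn are on the side of the response, from -0.29 to 0.49.

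Among the receptors, the retinoic acid receptor genes RARA and RARB had positive differences, while RARG and the retinoid X receptors RXRA and RXRB lay between -0.26 and 0.05. None of the 5 tested receptor genes was called without a block. RARB is itself a direct retinoic acid target, through a response element made of direct repeats spaced by 5 bases (a DR5 element) just before its start. That element is shown, in capitals, within the 250 bases before the RefSeq start (GRCh38.p14, chr3:25428013-25428262, plus strand), because RARB was among the 4 genes called from the per-number differences.
RARB: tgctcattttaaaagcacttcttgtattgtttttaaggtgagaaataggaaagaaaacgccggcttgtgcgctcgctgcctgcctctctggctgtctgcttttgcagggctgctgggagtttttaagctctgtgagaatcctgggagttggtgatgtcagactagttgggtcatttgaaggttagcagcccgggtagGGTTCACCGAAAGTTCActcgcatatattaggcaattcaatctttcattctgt

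The values of RARB were 5.36, 5.80 and 5.75 in vector DMSO, 6.03, 6.54 and 6.93 in vector ATRA, 5.29, 5.41 and 6.02 in EVI1 DMSO, and 7.09, 7.39 and 8.49 in EVI1 ATRA (log2, numbers 1, 2 and 3). All 3 EVI1 ATRA arrays stood above all 9 others. The ATRA effect was 2.08 in EVI1 cells (limma, adjusted p = 0.00282) and 0.86 in vector cells (adjusted p = 0.202, or 0.00839 with the replicate block, which calls both). The difference was 1.13, 1.24 and 1.29 at the 3 numbers, a mean of 1.22 ± 0.48 (SE), or 0.80 without EVI1 ATRA replicate 3. Its adjusted p was 0.998 without a block, 0.346 with the replicate block and 0.0471 from the per-number differences.

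RARA, the receptor fused in acute promyelocytic leukaemia, had no called ATRA effect in either line. It read 7.78, 7.73 and 7.35 in vector DMSO, 7.50, 7.44 and 7.15 in vector ATRA, 7.86, 7.56 and 7.60 in EVI1 DMSO, and 7.97, 7.94 and 8.34 in EVI1 ATRA. The value was lower with ATRA at every number in vector cells and higher at every number in EVI1 cells, and the difference was 0.67 ± 0.22 (SE, limma adjusted p = 0.998). Another RARA probe set gave -0.02, so the probe sets disagree. RARG had a difference of -0.10 (95% interval from -0.35 to 0.15), RXRA of 0.05 (from -0.52 to 0.61) and RXRB of -0.26 (from -0.76 to 0.25).

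Retinoid metabolism genes did not share a direction. Of 12 tested genes for making, binding or degrading retinoids, 5 were positive and 7 negative, 0 were called and the median was -0.09. The largest was CYP26A1, the enzyme that degrades retinoic acid and a direct receptor target. Its RefSeq window also held a DR5 element, the only other one among the tested retinoid genes, and it is printed in capitals with its flanks (GRCh38.p14, chr10:93073797-93073826, plus strand; the element reads on the minus strand).
CYP26A1: taaagaTGAACTTTGGGTGAACTaattgtc

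CYP26A1 stood at 5.45, 5.78 and 5.47 in vector DMSO, 5.30, 5.45 and 5.54 in vector ATRA, 5.34, 5.41 and 5.45 in EVI1 DMSO, and 5.86, 5.98 and 8.53 in EVI1 ATRA. The EVI1 ATRA arrays were the 3 highest, but only number 3 was far above the rest. The difference of 1.53 ± 0.73 (SE) was made of 0.67, 0.90 and 3.01, was 0.66 without EVI1 ATRA replicate 3, and was not called (limma adjusted p = 0.998). DHRS3 had 0.50, and its ATRA effect was 3.68 in vector and 4.18 in EVI1 cells. Its difference was 0.43, 1.33 and -0.25 at the 3 numbers, and -0.46 without vector DMSO replicate 3 in the fit without a block. The retinoic acid carrier CRABP2 had 0.19, and the fatty acid binding protein FABP5, which can also carry retinoic acid, had -0.29.

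Known retinoid targets were mostly positive. Of 19 tested genes 16 were positive and 3 negative, with a median of 0.40 (0.43, 0.44 and 0.35 at numbers 1, 2 and 3) against -0.02 for all genes, and 0 were called. Their median ATRA effect was 1.71 in vector and 2.00 in EVI1 cells. At an unadjusted p under 0.05, 3 were positive and 2 negative without a block (1.31% and 1.26% of all genes), and 5 and 2 with it (5.21% and 7.90%). This list was drawn up with results of these data known, so its direction is a description.

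CEBPE, a transcription factor of late granulocytic maturation, showed the shared direction. It read 7.37, 7.20 and 7.44 in vector DMSO, 8.29, 8.54 and 8.15 in vector ATRA, 6.94, 6.68 and 7.53 in EVI1 DMSO, and 8.58, 8.99 and 9.58 in EVI1 ATRA. The EVI1 ATRA arrays did not overlap any other group. CEBPE rose with ATRA by 2.00 in EVI1 cells (limma adjusted p = 0.000998). Its effect in vector cells was 0.99 (adjusted p = 0.0521, or 0.0106 with the replicate block), and the difference was 1.01 ± 0.35 (SE).

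PTGES, the enzyme that makes prostaglandin E2, had the largest value in the target list. It stood at 6.04, 6.46 and 6.62 in vector DMSO, 8.53, 9.59 and 10.79 in vector ATRA, 5.09, 5.98 and 6.68 in EVI1 DMSO, and 9.35, 11.63 and 12.45 in EVI1 ATRA. The DMSO groups overlapped, and so did the ATRA groups. PTGES rose in both lines, by 3.26 in vector (limma adjusted p = 0.0318) and 5.23 in EVI1 cells (adjusted p = 0.00145), and the difference was 1.96 ± 1.02 (SE).

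ID1, an inhibitor of basic helix-loop-helix factors, rose in both lines, by 2.07 in vector cells (limma adjusted p = 0.00771) and 3.14 in EVI1 cells (adjusted p = 0.000465), a difference of 1.07. Its ATRA levels overlapped (10.74, 11.46 and 10.29 in vector, 10.93, 10.85 and 10.82 in EVI1), while its DMSO levels were 8.56, 8.64 and 9.08 in vector and 7.56, 7.16 and 8.46 in EVI1. The wider effect thus began from lower EVI1 DMSO levels. TGM2, the transglutaminase that ATRA strongly induces in myeloid cells, had 0.88, PRAM1, an adaptor induced by ATRA, had 0.54, and the ectoenzyme CD38 had 0.49. Their standard errors were 1.04, 0.39 and 1.02. CD38 had 0.63, 0.55 and 0.29 at the 3 numbers, but -0.28 without vector DMSO replicate 3 in the fit without a block. With 1 array left out TGM2 ranged from 0.18 without EVI1 ATRA replicate 3 to 1.58 without EVI1 ATRA replicate 1.

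The 3 targets on the negative side were IRF1, an interferon response factor (-0.16), ID2, a relative of ID1 (-0.42), and THBD, the surface receptor thrombomodulin (-1.43 ± 0.61 SE). IRF1 had -0.28, -0.05 and -0.14 at the 3 numbers, but 0.22 without EVI1 DMSO replicate 3 in the fit without a block. THBD read 6.05, 6.55 and 8.27 in vector DMSO and 9.66, 10.45 and 10.24 in vector ATRA. In EVI1 cells it was 3.51, 3.34 and 3.71 in DMSO, under the arrays' lower quartiles, and 5.45, 5.13 and 5.17 in ATRA. All 6 EVI1 values lay below all 6 vector values. THBD rose with ATRA in both lines, by 3.16 (limma adjusted p = 0.00388) and 1.73 (adjusted p = 0.0197). An EVI1 baseline this near background can make the second of these too small.

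Immediate early genes, the first transcription factors that growth and stress signals switch on, were mostly positive. Of 22 tested genes 20 were positive and 2 negative (45.0% and 54.8% of all genes), with a median of 0.28 (0.22, 0.15 and 0.70 at the 3 numbers), and 0 were called without a block. Without number 3 the median was 0.13, with 16 positive and 6 negative, so the list's size rests on number 3. At an unadjusted p under 0.05 there were 6 positive and 0 negative genes (1.31% and 1.26% of all genes).

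EGR1, a zinc finger factor of monocytic maturation, was called in both tests that allow a baseline for each number within a cell line. Serum response factor drives EGR1 through CArG boxes. The 250 bases before its RefSeq start (GRCh38.p14, chr5:138465229-138465478, plus strand) held 2 of them, shown in capitals, whose first bases lie 105 and 83 bases before the start.
EGR1: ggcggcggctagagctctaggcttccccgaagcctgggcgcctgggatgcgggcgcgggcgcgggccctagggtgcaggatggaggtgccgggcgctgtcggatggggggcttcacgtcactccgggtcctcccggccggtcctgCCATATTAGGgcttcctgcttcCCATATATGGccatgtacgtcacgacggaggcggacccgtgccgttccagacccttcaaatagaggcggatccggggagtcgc

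EGR1 read 4.88, 5.46 and 5.75 in vector DMSO, 5.31, 6.31 and 6.51 in vector ATRA, 5.66, 6.30 and 7.65 in EVI1 DMSO, and 7.87, 8.80 and 10.11 in EVI1 ATRA. The EVI1 ATRA arrays stood above all others, and within each group number 1 was lowest and number 3 highest. The differences of 1.78, 1.65 and 1.70 varied far less than the levels, with a mean of 1.71 ± 0.07 (SD, n = 3). The SE of the fit without a block was 0.82, and without EVI1 ATRA replicate 3 that fit gave 1.12. The adjusted p was 0.998 without a block, 0.346 with the replicate block, 0.0116 with a block per number and line, and 0.0118 from the per-number differences (limma).

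EGR3, a relative of EGR1, had the largest positive value of the genes named by size. It stood at 3.71, 3.88 and 3.69 in vector DMSO, 3.81, 4.26 and 4.42 in vector ATRA, 3.76, 3.84 and 7.45 in EVI1 DMSO, and 6.67, 8.45 and 10.79 in EVI1 ATRA. The vector values and 2 of the EVI1 DMSO values lay at background, so the vector ATRA effect is poorly measured, and EVI1 DMSO number 3 stood alone. Outside EVI1 ATRA, only that array reached the level of 5 needed for testing. The difference was 3.22 ± 1.41 (SE, limma adjusted p = 0.998), with 2.81, 4.23 and 2.61 at the 3 numbers, or 2.14 without EVI1 ATRA replicate 3.

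JUN, a subunit of the AP-1 factor, fell with ATRA by 1.64 in vector cells (limma adjusted p = 0.0271), while its effect in EVI1 cells was -0.12 (adjusted p = 0.886). Its values were 9.94, 10.06 and 9.68 in vector DMSO and 8.04, 8.47 and 8.24 in vector ATRA. They were 9.36, 9.69 and 9.44 in EVI1 DMSO and 8.76, 8.91 and 10.46 in EVI1 ATRA. Only at number 3 did the EVI1 ATRA value exceed its DMSO value, and the difference of 1.52 ± 0.49 (SE) was made of 1.3, 0.81 and 2.46, and was 0.98 without EVI1 ATRA replicate 3. Other AP-1 genes had 0.87 (FOSL2), 0.61 (JUNB) and 0.45 (JUND), and the mRNA decay factor ZFP36 had 0.68.

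**Figure D4:**
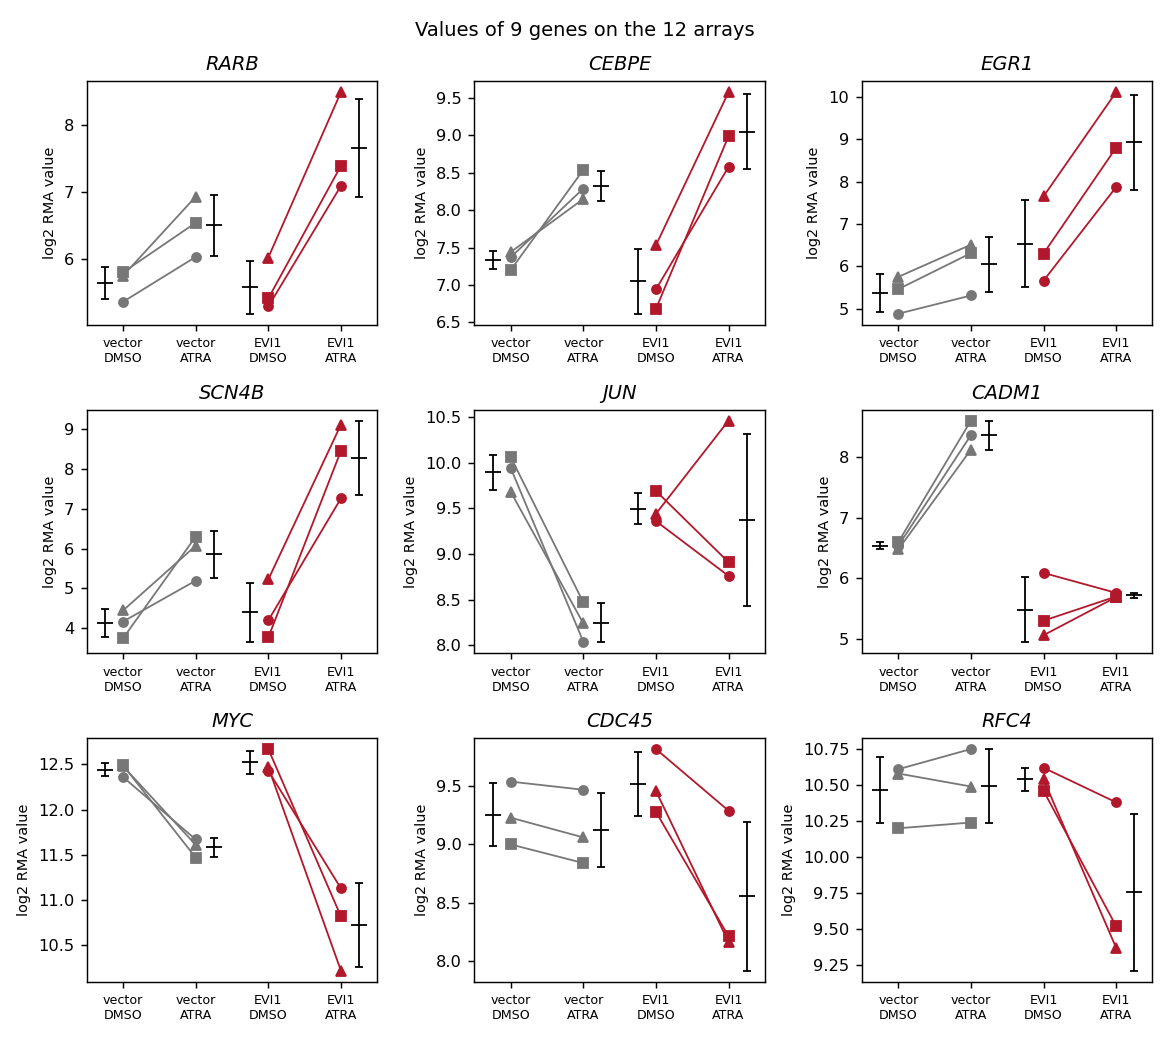
Log2 RMA values (vertical axis) of 9 genes on the 12 arrays in the 4 groups (horizontal axis). Circles, squares and triangles are replicate numbers 1, 2 and 3 joined within a line, with vector cells in grey and EVI1 cells in red, and black bars give mean ± SD. RARB and EGR1 climb more in EVI1 cells, and CADM1 climbs by 1.83 in vector cells and 0.23 in EVI1 cells. CDC45 and RFC4 have ATRA effects of -0.97 and -0.78 in EVI1 cells and of -0.13 and 0.03 in vector cells.

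Among the largest positive genes of any function, SCN4B and TOGARAM2 were close between numbers. SCN4B, a sodium channel beta subunit, read 4.16, 3.74 and 4.44 in vector DMSO, 5.19, 6.30 and 6.07 in vector ATRA, 4.19, 3.76 and 5.22 in EVI1 DMSO, and 7.26, 8.46 and 9.12 in EVI1 ATRA. The EVI1 ATRA arrays did not overlap the other groups. The difference was 2.04, 2.14 and 2.27, with an adjusted p of 0.998 without a block and 0.00836 from the per-number differences (limma).

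TOGARAM2, which encodes a TOG-domain protein, read 4.82, 5.14 and 4.68 in vector DMSO, 5.59, 6.0 and 5.66 in vector ATRA, 5.19, 4.52 and 6.37 in EVI1 DMSO, and 8.01, 7.39 and 8.94 in EVI1 ATRA. Its EVI1 ATRA arrays were also the 3 highest. The difference was 2.05, 2.01 and 1.59, with an adjusted p of 0.00266 with a block per number and line and 0.0239 from the per-number differences (limma). FAM222A, of less known function, had 1.5 ± 0.31 (SE), and 0.13 in vector against 1.63 in EVI1 cells. The chemokine receptor CXCR5 had 1.17 ± 0.54 (SE), with ATRA effects of 1.60 and 2.76. Both had an adjusted p of 0.0269 with a block per number and line.

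P2RY13, a receptor for ADP, had 2.70 ± 0.85 (SE). It read 3.40, 3.58 and 3.70 in vector DMSO, at background, and 3.98, 4.35 and 4.93 in vector ATRA. In EVI1 cells it was 3.14, 3.51 and 4.78 in DMSO and 5.77, 7.68 and 8.65 in ATRA. P2RY13 thus reached the level of 5 needed for testing only through EVI1 ATRA, the group where it was high. FFAR2, a short-chain fatty acid receptor of neutrophils, rose in both lines, by 1.88 in vector (limma adjusted p = 0.0169) and 3.30 in EVI1 cells (adjusted p = 0.000590). The chemokine CCL26, the lipid phosphatase PLPP3 and the kynurenine enzyme KMO had 1.73, 1.52 and 1.43. Outside EVI1 ATRA, KMO reached the level of 5 only in EVI1 DMSO number 3 (5.43). SLFN5, an interferon-induced Schlafen gene, had 1.55, but its 3 values of 0.02, 1.72 and 2.90 spanned from no difference to the largest.

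Maturation lists had positive medians whose size depended on the number. Of 15 granulocytic maturation genes 9 were positive and 6 negative with a median of 0.17, and of 13 monocyte and macrophage surface genes 11 and 2 with a median of 0.28. All 13 Toll-like and Fc receptor genes were positive, with a median of 0.19, but 11 of 13 without number 2 or without number 3. Without number 3 the granulocytic median was 0.03, with 8 positive and 7 negative. Without number 2 the monocyte list's median was 0.17 with 11 positive, and without number 3 it was 0.17 with 10 positive. The calcium-binding alarmin S100A8 had 1.24 ± 0.89 (SE): its ATRA effect was 3.06 in EVI1 cells (limma adjusted p = 0.00859) and 1.82 in vector cells (adjusted p = 0.149, or 0.0371 with the replicate block). The S100A8 difference was 1.09, 1.42 and 1.21 at the 3 numbers. Without EVI1 ATRA replicate 3 it was 0.59 in the fit without a block, where the other arrays of number 3 stay in. Its EVI1 DMSO value of number 3, 8.33, stood apart from 5.94 and 5.95. Of 11 primary granule and immature myeloid genes, 2 were positive and 9 negative, with a median of -0.28. None of these genes was called.

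Interferon genes were positive in 27 of 37 cases (45.0% of all genes) with a median of 0.17 and 0 calls. Without number 3 the median was 0.06, with 25 positive. IRF9, the DNA-binding subunit of the type I interferon factor ISGF3, had 0.73 ± 0.39 (SE), and OASL, an interferon-induced antiviral gene, had 0.90 ± 0.49. MHC class I and immunoproteasome genes were divided, with 7 positive and 10 negative of 17. NR1H3, the liver X receptor of cholesterol efflux, had 0.94 ± 0.39, from an effect of 1.66 in EVI1 cells (limma adjusted p = 0.00310) and 0.72 in vector cells (adjusted p = 0.187, or 0.0230 with the replicate block). PFKFB3, an activator of glycolysis, had 0.71 ± 0.17, with 0.61, 0.80 and 0.73 at the 3 numbers.

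CADM1, an immunoglobulin-type adhesion molecule, was raised by ATRA in vector cells and not called in EVI1 cells. It read 6.54, 6.60 and 6.48 in vector DMSO and 8.37, 8.61 and 8.13 in vector ATRA, a rise of 1.83 (limma adjusted p = 0.00272). In EVI1 cells it was 6.09, 5.30 and 5.06 in DMSO and 5.76, 5.70 and 5.69 in ATRA, an effect of 0.23 (adjusted p = 0.549). The vector ATRA arrays stood above all others. The difference of -1.60 ± 0.30 (SE) had an unadjusted p of 0.000202, an adjusted p of 0.998 and values of -2.16, -1.61 and -1.02. ICAM3, another adhesion molecule, had -0.53 ± 0.18 (SE): it rose by 0.68 in vector cells (adjusted p = 0.0192), with an effect of 0.15 in EVI1 cells (adjusted p = 0.510).

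Other negative genes had a larger fall with ATRA in EVI1 cells. HS3ST2, a heparan sulfate sulfotransferase, read 6.83, 6.78 and 7.14 in vector DMSO, 5.68, 5.31 and 6.06 in vector ATRA, 8.87, 8.99 and 8.68 in EVI1 DMSO, and 6.40, 6.44 and 6.28 in EVI1 ATRA. Its EVI1 DMSO arrays were the 3 highest. HS3ST2 fell in both lines, by 1.23 in vector (limma adjusted p = 0.00452) and by 2.47 in EVI1 cells (adjusted p = 0.000103). The difference was -1.24 ± 0.24 (SE), with an adjusted p of 0.998 without a block and 0.0269 with a block per number and line.

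NOG, the BMP antagonist noggin, fell by 1.40 in vector (limma adjusted p = 0.00272) and by 2.24 in EVI1 cells (adjusted p = 0.000125), a difference of -0.85. PTX3, a secreted pattern recognition protein, had -0.93. Its EVI1 ATRA values of 3.23, 3.34 and 2.81 lay at background, which limits that size. DDC, the aromatic amino acid decarboxylase, had -1.0 ± 0.20 (SE), with an effect of -1.24 in EVI1 cells (adjusted p = 0.000667) and -0.24 in vector cells (adjusted p = 0.408). Another DDC probe set gave 0.23. DNTT, the template-independent DNA polymerase of lymphoid progenitors, had -1.04 ± 0.33. Its ATRA effect was -1.43 in EVI1 cells (limma adjusted p = 0.00303) and -0.39 in vector cells (adjusted p = 0.446). DNTT means were 6.73 in EVI1 DMSO and 5.69 in vector DMSO, but 5.30 and 5.31 in ATRA. The wider effect thus began from a higher EVI1 DMSO level.

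Growth genes were on the negative side as groups. MYC, the transcription factor that drives ribosome production and growth, was abundant on every array: 12.36, 12.49 and 12.48 in vector DMSO, 11.67, 11.47 and 11.61 in vector ATRA, 12.43, 12.67 and 12.47 in EVI1 DMSO, and 11.13, 10.82 and 10.22 in EVI1 ATRA. The EVI1 ATRA arrays were the 3 lowest and the DMSO groups overlapped. MYC fell with ATRA by 0.86 in vector (limma adjusted p = 0.0286) and by 1.80 in EVI1 cells (adjusted p = 0.000465). The difference was -0.94 ± 0.26 (SE), with -0.61, -0.83 and -1.38 at the 3 numbers and an adjusted p of 0.998.

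Ribosome biogenesis genes and related MYC targets were negative in 18 of 19 cases, 17 of them at all 3 numbers, against 54.8% and 24.8% of all genes. Their median was -0.37 (-0.35, -0.29 and -0.45 at the 3 numbers), and their median ATRA effect was -0.39 in vector and -0.74 in EVI1 cells. POLR3G, a subunit of RNA polymerase III, had the largest value of this list at -0.88: it fell by 1.16 in vector (limma adjusted p = 0.0239) and by 2.04 in EVI1 cells (adjusted p = 0.000879). At an unadjusted p under 0.05, 2 genes were negative without a block (1.26% of all genes) and 12 with the replicate block (7.90%), and 0 were called.

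DNA replication and G1/S genes were negative in 27 of 27 cases, 22 of them at all 3 numbers, against 54.8% and 24.8% of all genes. The median difference was -0.54, from a median ATRA effect of -0.07 in vector cells and -0.56 in EVI1 cells. It was -0.13 at number 1, -0.71 at number 2 and -0.75 at number 3. Leaving out any 1 number left 27 of 27 negative, with medians from -0.46 to -0.68. None was called, 2 had an unadjusted p under 0.05 without a block (1.26% of all genes) and 19 with the replicate block (7.90%). The members share the cell cycle as a source of variation and are not independent.

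CDC45, part of the replicative helicase, read 9.54, 9.0 and 9.23 in vector DMSO, 9.47, 8.84 and 9.06 in vector ATRA, 9.82, 9.28 and 9.46 in EVI1 DMSO, and 9.29, 8.21 and 8.16 in EVI1 ATRA. The EVI1 ATRA values of numbers 2 and 3 were the lowest, while that of number 1 lay inside the other groups. CDC45 fell by 0.97 in EVI1 cells (limma adjusted p = 0.0394), its effect in vector cells was -0.13 (adjusted p = 0.880), and the difference was -0.83 ± 0.40 (SE). RFC4, a subunit of the clamp loader, had -0.81 ± 0.33, with an effect of -0.78 in EVI1 cells (adjusted p = 0.0403) and 0.03 in vector cells (adjusted p = 0.969). MCM10, a replication initiation factor, had -0.75 ± 0.31.

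Mitosis and G2/M genes were negative in 23 of 24 cases (54.8% of all genes) with a median of -0.25, and again more so at numbers 2 (-0.34) and 3 (-0.44) than at number 1 (-0.10). The proliferation marker MKI67 had -0.71, the mitotic kinase AURKB -0.55 and the kinetochore gene CENPF -0.49. At an unadjusted p under 0.05, 1 of the 24 was negative without a block (1.26% of all genes) and 6 with it (7.90%). Without number 1 the median was -0.40 with 24 negative, and without number 3 it was -0.16 with 22 negative.

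Opposite ATRA directions in the 2 lines at all 3 numbers were found for 246 genes, 1.75% of those tested. The effect was positive in EVI1 and negative in vector cells for 118 of them (0.838%) and the reverse for 128 (0.909%). The largest was RGCC, a cell cycle regulator, which read 7.78, 7.47 and 7.94 in vector DMSO, 6.80, 7.21 and 6.70 in vector ATRA, 8.28, 8.55 and 8.89 in EVI1 DMSO, and 8.56, 8.98 and 9.75 in EVI1 ATRA. All 6 EVI1 values stood above all 6 vector values, and the difference was 1.35 ± 0.38 (SE, limma adjusted p = 0.998).

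**Figure D5:**
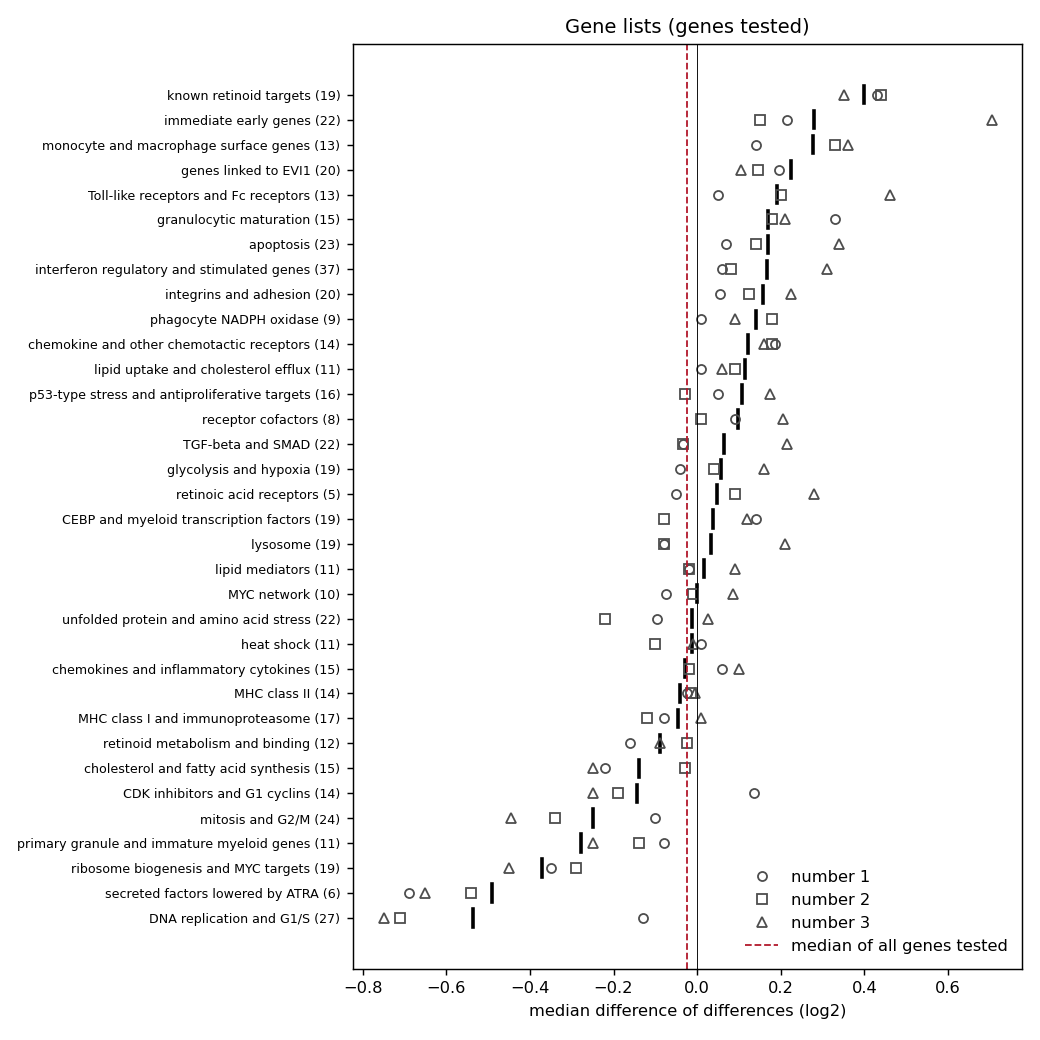
Median difference of differences (log2, horizontal axis) of each gene list, with the number of genes tested in parentheses. Thick ticks are the list median, open symbols the replicate numbers and the dashed line the median of all genes, -0.02. Known retinoid targets lie highest at 0.40, DNA replication and G1/S lowest at -0.54.

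Promoter sequence was set beside the differences for 4 kinds of element. Windows of 300 bases, 250 before to 50 after each RefSeq start, were searched on both strands in 35116 entries, and 11235 tested genes had a window. Their median difference was -0.02 and 44.4% were positive. The DR5 element was in 31 windows (0.0883%), among them those of 10 tested genes, of which 7 were positive, with a median of 0.12. The CArG box was in 454 windows (1.29%) and 185 tested genes, with a median of -0.02 and 47.0% positive. An EVI1-type motif, GACAAGATA, was in 34 windows (0.0968%) and 5 tested genes, 3 of them positive. The E2F-type octamers TTTGGCGC, TTTCGCGC, TTTCCCGC or TTTGGCGG were in 1177 windows (3.35%) and 710 tested genes, with a median of -0.09 and 32.7% positive. A match is a description of the letters and not of binding.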

How the data were processed

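Expression was measured in 12 samples on Affymetrix 3' arrays, from 250 ng of total RNA. The authors deposited log2 values made by RMA (background correction, normalisation between arrays and probe set summary). Per the submitters' processing notes the program was Affymetrix Expression Console, version 1.3. Its settings were not given in the sources used here. No further scaling was applied. Quantile normalisation smooths differences in overall level, so values are relative to the rest of each array.

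Of 54675 probe sets, 41097 carried 1 gene symbol in the platform annotation, 1801 carried several and were left out, and 11777 were not listed. Each of 19775 genes was read through the probe set of highest mean level, and the 14080 genes that reached 5 (log2) on 3 or more arrays were tested. The test was limma 3.58.1 in R 4.3.3 on 4 group means (8 residual degrees of freedom), with Benjamini-Hochberg adjustment at 0.05, checked on simulated data. ATRA effects within each line come from the same fit. P-values measure the spread between these samples.

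Deviations from the group means correlated between 0.408 and 0.704 for the 18 pairs of arrays with the same replicate number. For the 36 other pairs the range was -0.560 to 0.164. The numbers, taken from the sample titles, were therefore used as pairs in the per-number differences and in the alternative fits. The main fit had no term for the number, so its standard errors and p-values include the spread between numbers. Fits with the number as a block, with a block per number and agent or cell line, and on the 3 differences themselves were alternatives.

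Genes were named if called, if among the 12 largest in each direction with an unadjusted p under 0.05 and 1 sign at all 3 numbers, if their ATRA effect had opposite signs in the 2 lines at all numbers (the 6 largest), or if a retinoid gene or among the 3 largest of a list. The text prints part of these, and FOSL2, JUNB, JUND, ZFP36 and MCM10 were named after their values were seen. Members and lists were chosen with earlier results of these data known. Promoter windows are from RefSeq, GRCh38.p14. No protein sequence was used here.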

Additional observations from a re-analysis of the deposited data

Results flagged for a closer look

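A handful of named genes moved one way with ATRA in EVI1 cells at all 3 replicate numbers and the other way in vector cells at all 3. The difference itself did not pass limma's test of the interaction for any of them (adjusted p = 0.998).

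RGCC had a difference of 1.35: the ATRA effect was 0.52 in EVI1 cells and -0.83 in vector cells. SH3RF1, a scaffold of stress kinase signalling, had 1.31. EMP1, a membrane protein, had 1.16 with vector ATRA values of 3.46, 4.48 and 3.41 near background. The EMP1 difference was 1.11, 0.72 and 1.66 at the 3 numbers. With 1 array left out it ranged from 0.32 (without EVI1 ATRA replicate 3) to 1.76 (without EVI1 ATRA replicate 1). FBXO6, a ubiquitin ligase subunit, had 0.86, with 0.50 in EVI1 cells and -0.36 in vector cells. CEMIP2, a cell surface hyaluronidase, had 0.84, and its rise of 0.52 in EVI1 cells passed the test (limma adjusted p = 0.0420). RARA had 0.67, with another probe set at -0.02. JUNB had 0.61. In the reverse direction, the uncharacterised LOC105379499 had -0.96 and the retinoic acid hydroxylase CYP26B1 had -0.28.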

How the results depend on the processing

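With the replicate block, genes at an unadjusted p under 0.05 numbered 734 positive and 1112 negative. With a block per number and agent they numbered 746 and 1212, and with a block per number and cell line 890 and 1189, where 4 positive and 1 negative gene were called. The per-number differences gave 1060 and 1564, with 4 positive calls. The replicate block itself changed no call of the interaction among the genes named, but added calls of the ATRA effect in vector cells, such as RARB and CEBPE. Array weights gave 488 and 617 and 1 negative call (DDC, -1.16, limma adjusted p = 0.0391), every probe set on its own 305 and 275, and the linear signal 292 positive. Leaving out 1 replicate or array gave 78 to 578 positive and 61 to 924 negative genes, and 0 to 1 negative calls (DDC without EVI1 ATRA replicate 1). The mean along the response was 0.438 for averaged effects of at least 1, and 0.121 to 0.325 with 1 replicate or array left out. The filter, trend, quantile, centring and probe set mean alternatives kept the 0 calls. The sign turned for RXRA (-0.10 as a mean of probe sets, -0.24 for another probe set, -19.7 on the linear signal), CYP26B1 (0.037 as a mean of probe sets), DDC (0.23) and RARA (-0.023) for another probe set, and IRF1 (50.1 on the linear signal). With arrays left out it turned for RXRA (-0.14 to 0.18), CD38 (-0.28 to 1.44), DHRS3 (-0.46 to 1.89) and IRF1 (-0.42 to 0.22). Values with 1 array left out, here and above, come from group means without a block. The other arrays of that number stay in, so level differences between numbers enter these values. At numbers 1, 2 and 3 themselves, CD38 had 0.63, 0.55 and 0.29, and IRF1 -0.28, -0.05 and -0.14. RXRA (-0.23, 0.09 and 0.28) and DHRS3 (0.43, 1.33 and -0.25) differed in sign between numbers. The cause of the turned signs was not tested. Counts without each number, for the lists and the response, were chosen after seeing the data. Values near the lower quartile of the arrays limit the size of differences from below.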

Other observations

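Inflammatory and survival genes outside the groups above also had positive values in part. Of 15 tested chemokine and cytokine genes 7 were positive and 8 negative, with a median of -0.03 and 0 called, so the list had no shared direction. The monocyte attractant CCL2 had 1.66 ± 0.91 (SE). It read 9.25, 9.73 and 7.77 in vector DMSO, 8.18, 9.24 and 8.46 in vector ATRA, 9.06, 10.00 and 8.54 in EVI1 DMSO, and 9.05, 11.38 and 11.28 in EVI1 ATRA. The EVI1 ATRA value of number 1, 9.05, lay inside the range of every other group, while those of numbers 2 and 3 were the highest. The inflammasome cytokine IL18 had 0.88 and the neutrophil attractant CXCL8 had 0.77. IL18 had 1.24, 0.76 and 0.63 at the 3 numbers, and CXCL8 had 1.01, 0.23 and 1.06. With 1 array left out they ranged from 0.30 to 1.42 and from 0.37 to 1.16. Of 23 apoptosis genes 18 were positive and 5 negative (45.0% and 54.8% of all genes), with a median of 0.17. Without number 3 the median was 0.07, with 16 positive and 7 negative. BCL2A1, a survival gene of the BCL2 family, had 0.97. None of these was called by limma.

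Cholesterol and fatty acid genes were negative in 12 of 15 cases (54.8% of all genes) with a median of -0.14, and in 9 of 15 with a median of -0.09 without number 3. Amino acid and unfolded protein stress genes were divided, with 10 positive and 12 negative. PSAT1, an enzyme of serine synthesis, had -0.65, with -0.30, -0.94 and -0.70 at the 3 numbers. Without EVI1 ATRA replicate 3 it was -0.25 in the fit without a block, where the other arrays of number 3 stay in. PSMB9, a catalytic subunit of the immunoproteasome, had -0.67. Its ATRA effect was positive in both lines, 1.31 in vector (limma adjusted p = 0.0153) and 0.64 in EVI1 cells (adjusted p = 0.0937). PSMB9 means were 9.42 in vector DMSO and 10.42 in EVI1 DMSO, and 10.73 and 11.06 in ATRA.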
